A study of Homo sapiens with 3 samples.

Results

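The comparison described here is the BAP1 knockdown of A375SM cells against its control, shBAP1 against shEmpty, read across every gene with enough counts. A375SM is an established subline of the human melanoma line A375 with a high capacity for metastasis. The members are the genes with a mean raw count of at least 50 over the 3 libraries of the series, which were 11956 of the 24424 genes in the table. Each library came from a population infected with a lentiviral hairpin vector that also carries green fluorescent protein (GFP), and GFP-positive cells were selected into stable populations. The shBAP1 population has the genotype label BAP1 knockdown. The shEmpty population has the genotype label WT, while the series text describes it as a non-targeting hairpin, so it is called the control here. A population with a hairpin against PRAME (shPRAME) completes the series and is quoted only to show where the level of a gene lay outside this comparison. The labels name a single BAP1 hairpin population, so an effect of that hairpin on other transcripts cannot be told apart from an effect of lower BAP1.

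BAP1 is a nuclear deubiquitinase. Together with ASXL proteins it removes ubiquitin from histone H2A, the mark that Polycomb repressive complex 1 places on chromatin, and it binds the transcriptional cofactor HCFC1, the glycosyltransferase OGT and the forkhead factors FOXK1 and FOXK2. It is a tumour suppressor lost in metastasizing uveal melanoma, in mesothelioma and in a familial tumour syndrome that includes melanocytic skin tumours. In the cytoplasm it has been described at the endoplasmic reticulum, where it acts on an IP3 receptor that releases calcium.

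Each group was 1 library, so the differences below cannot be checked against replicates and no p-value is given. Levels are raw counts divided by the effective library size, in CPM (counts per 1000000 of that size), and 3 levels in a row are always in the order shEmpty, shBAP1, shPRAME. A fold is the ratio of 2 such levels, and the range after it is the exact 95% interval of that ratio, which covers counting error only. Where a gene had no count, the floor of 3 counts (0.160 CPM in shEmpty, 0.202 in shBAP1) stood in and the fold is a lower bound, written as "at least". A gene is called higher or lower in shBAP1 where the fold was at least 2 and the interval left out no change. The libraries held between 14181829 counts (shBAP1) and 19430130 counts (shEmpty).

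BAP1 itself was lowest in the shBAP1 library, which checks the labels. It had 1874, 522 and 1790 counts in shEmpty, shBAP1 and shPRAME, or 100.0, 35.2 and 97.9 CPM. Its level in shBAP1 was 35.2% of the control (31.8% to 38.8%). PRAME had 327, 455 and 108 CPM, a log2 ratio of 0.47 between shBAP1 and shEmpty, inside the 2-fold limit. The melanoma identity of the line was read from SOX10 (506, 367 and 657 CPM) and MITF (309.9, 239 and 114 CPM), the master regulators of melanocytes, and from the calcium-binding proteins S100B (72.4, 186 and 43.2 CPM) and S100A1 (196, 123 and 405 CPM). The melanosome markers PMEL (6, 34 and 8 counts) and MLANA (3, 19 and 7 counts) were scarce in all 3 libraries. The pigment enzymes TYR, TYRP1 and DCT, of the same marker set, were high in shBAP1 only. TYR and TYRP1 were nearly without counts in shEmpty and shPRAME, and the counts of all these enzymes are given below. PAX3, also of the set, is drawn in the figure of pigment and lineage genes. Of markers of other cell types, 1 of 16 keratinocyte genes (KRT10), 1 of 14 immune genes (CD68), 2 of 12 endothelial genes (KDR and TIE1) and 7 of 14 fibroblast genes were measured. The summed level of the fibroblast list was 1296 CPM in shEmpty and 1177 CPM in shBAP1, that of the immune list 51.7 and 65.5 CPM, that of the endothelial list 80.3 and 15.8 CPM and that of the keratinocyte list 35.5 and 55.1 CPM. No count in any library was found for 5 of the 14 immune genes, CD3E, CD3D and TYROBP among them. The same held for 3 of the 16 keratinocyte genes, KRT1 and IVL among them. It held for only 1 of 12 endothelial genes (CDH5) and 1 of 14 fibroblast genes (DPT).

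Among measured genes more were lower than higher in shBAP1. Of the 11956 measured genes, 661 were higher (5.53%) and 1024 lower (8.56%), together 1685 (14.1%), while 8276 (69.2%) stood within 1.5-fold of the control. The median log2 ratio of all measured genes was -0.03. That median moved by 0.12 with scaling by total count, where 829 genes were higher and 837 lower, a share of 49.8% higher calls in place of 39.2%. With no count minimum the balance turned, with 1530 genes higher and 1486 lower. A list median that lies within 0.12 of 0 therefore has no settled sign, and medians below are to be read against -0.03. Numbers of called list members are likewise to be read against the shares over all measured genes, 5.53% higher and 8.56% lower. A ratio of 10-fold or more was found in 105 of the genes called higher, and of 32-fold or more in 46. Among the genes called lower the same numbers were 108 and 31. No count was found in shEmpty for 11 measured genes that had counts in shBAP1, and the reverse held for 17. Of the genes called higher, 69 had under 50 counts in both other libraries and were measured through shBAP1 alone, and 33 of those called lower were measured through shEmpty alone. Such genes had to differ in order to be measured.

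**Figure D1:**
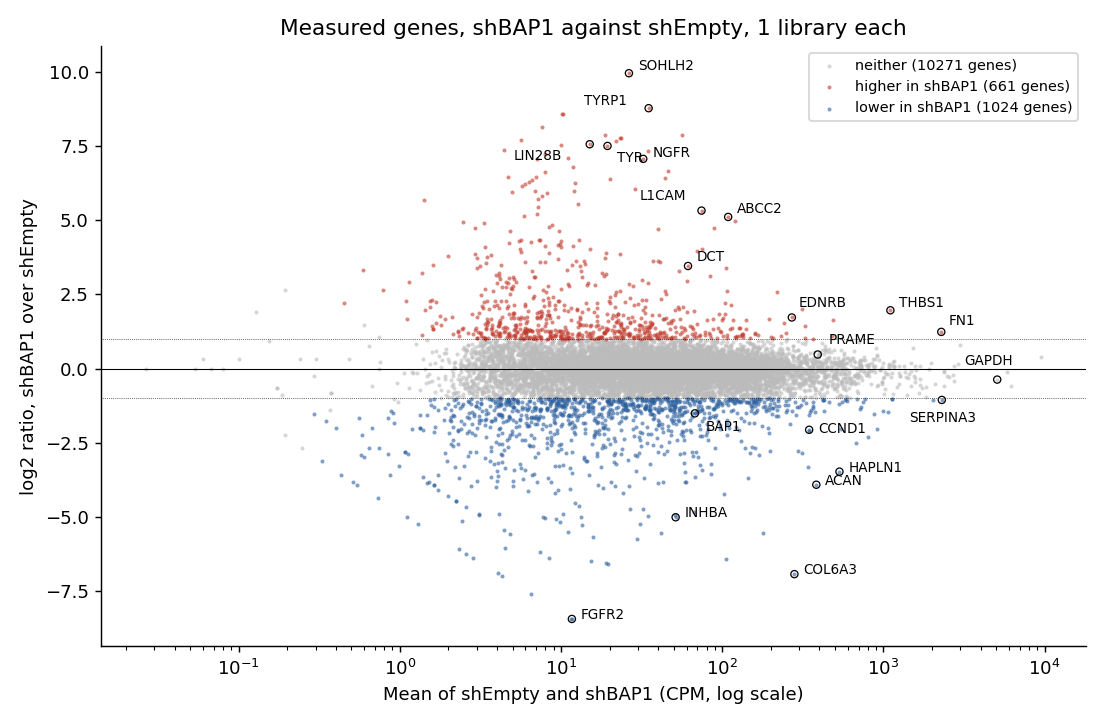
Each point is a measured gene, with its mean level in shEmpty and shBAP1 (CPM, log scale) on the horizontal axis and its log2 ratio on the vertical axis. The 661 genes called higher lie above the upper dotted line and the 1024 called lower below the lower one, and circles mark genes named in the text.

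Calls were commonest among scarce transcripts, and the excess of lower genes was widest among abundant ones. Of the 2989 genes with the lowest mean level 362 were higher and 455 lower. Of the 2989 with the highest mean level, from 83.7 CPM upward, 57 were higher and 179 lower. By class, 590 of 11309 measured protein-coding genes were higher and 987 lower (median -0.04), whereas 51 of 333 measured long noncoding RNA genes were higher and 19 lower (median 0.20).

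Genes of 3 chromosomes stood apart from the rest as whole groups. On chromosome 6 the median log2 ratio was 0.40 over 585 measured genes, with 79 higher and 33 lower. On chromosome 8 it was -0.54 over 432 genes, with 15 higher and 94 lower, and on chromosome 18 it was -0.62 over 165 genes, with 5 higher and 46 lower. The medians of the other chromosomes lay between -0.26 (chromosome 10) and 0.16 (chromosome 16). With each chromosome's median subtracted, a step added after the data were seen, 618 genes were higher and 949 lower, and 1460 of the 1685 calls remained in their direction. A clause below gives the chromosome where a list leans on these 3, and the part of the chromosome shifts in those results was not tested beyond this subtraction.

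**Figure D2:**
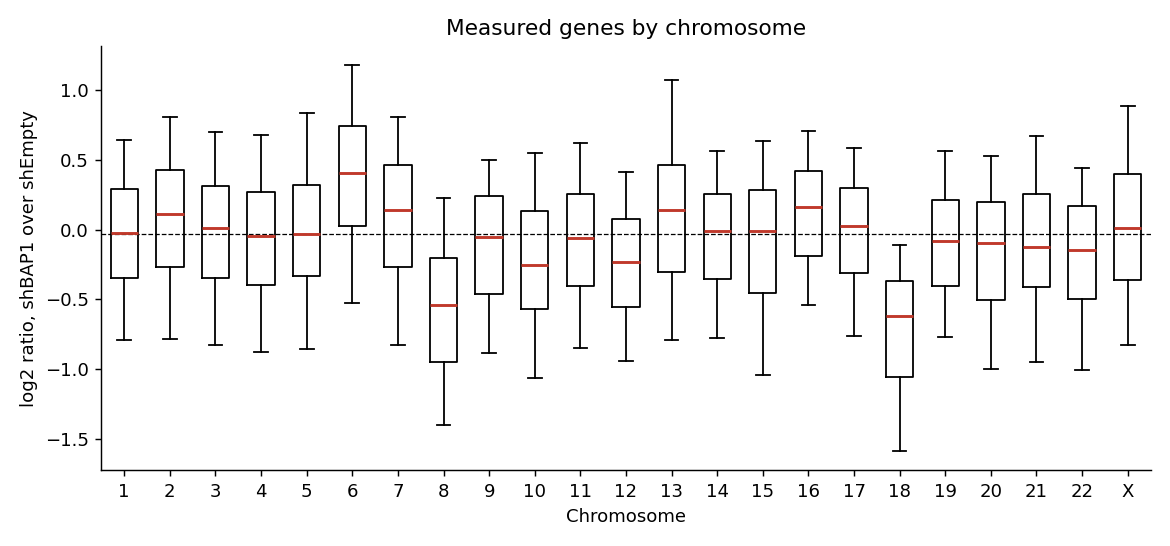
Boxes span the quartiles of the log2 ratio of measured genes on each chromosome, red lines are medians and whiskers reach the 10th and 90th percentiles. The boxes of chromosomes 8 and 18 lie low and that of chromosome 6 high against the dashed median of all genes.

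None of the measured partners of BAP1 was called. Of 15 listed complex partners 14 were measured, with a median log2 ratio of -0.15. OGT had 189, 209 and 199 CPM, a log2 ratio of 0.14. The scaffold ASXL1 had 169, 196 and 139 CPM and a log2 ratio of 0.21. HCFC1 had a log2 ratio of -0.07. The lowest partner was BRCA1, for whose binding BAP1 was named, at 115, 62.1 and 38.1 CPM and a log2 ratio of -0.89. None of 13 measured genes for other histone H2A and H2B deubiquitinases (15 listed) was called either and the median was 0.23. USP22, the H2B deubiquitinase of the SAGA coactivator, had a log2 ratio of 0.04 and MYSM1, which acts on H2A, -0.18.

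Polycomb genes, among them those of the complex that places the H2A mark BAP1 removes, had mostly negative ratios within the limit. In Polycomb repressive complex 1, 29 of 30 listed genes were measured, 20 had a negative log2 ratio and 1 was called. That gene was SCML2 (17.5, 6.80 and 18.7 CPM), a germline-biased Polycomb protein, 2.57-fold lower (2.05 to 3.25). The most abundant by CPM was PHC2, a polyhomeotic subunit, with a log2 ratio of 0.22, and the list median was -0.23. All 13 listed genes of Polycomb repressive complex 2 were measured and the median was -0.23. C10orf12 (12.8, 6.33 and 12.5 CPM), an accessory subunit gene, was 2.02-fold lower (1.59 to 2.60) at the edge of the limit, and it was no longer called with chromosome medians subtracted. The histone-binding subunits RBBP7 and RBBP4 had log2 ratios of -0.23 and -0.28 and the methyltransferase EZH2 -0.53.

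**Figure D3:**
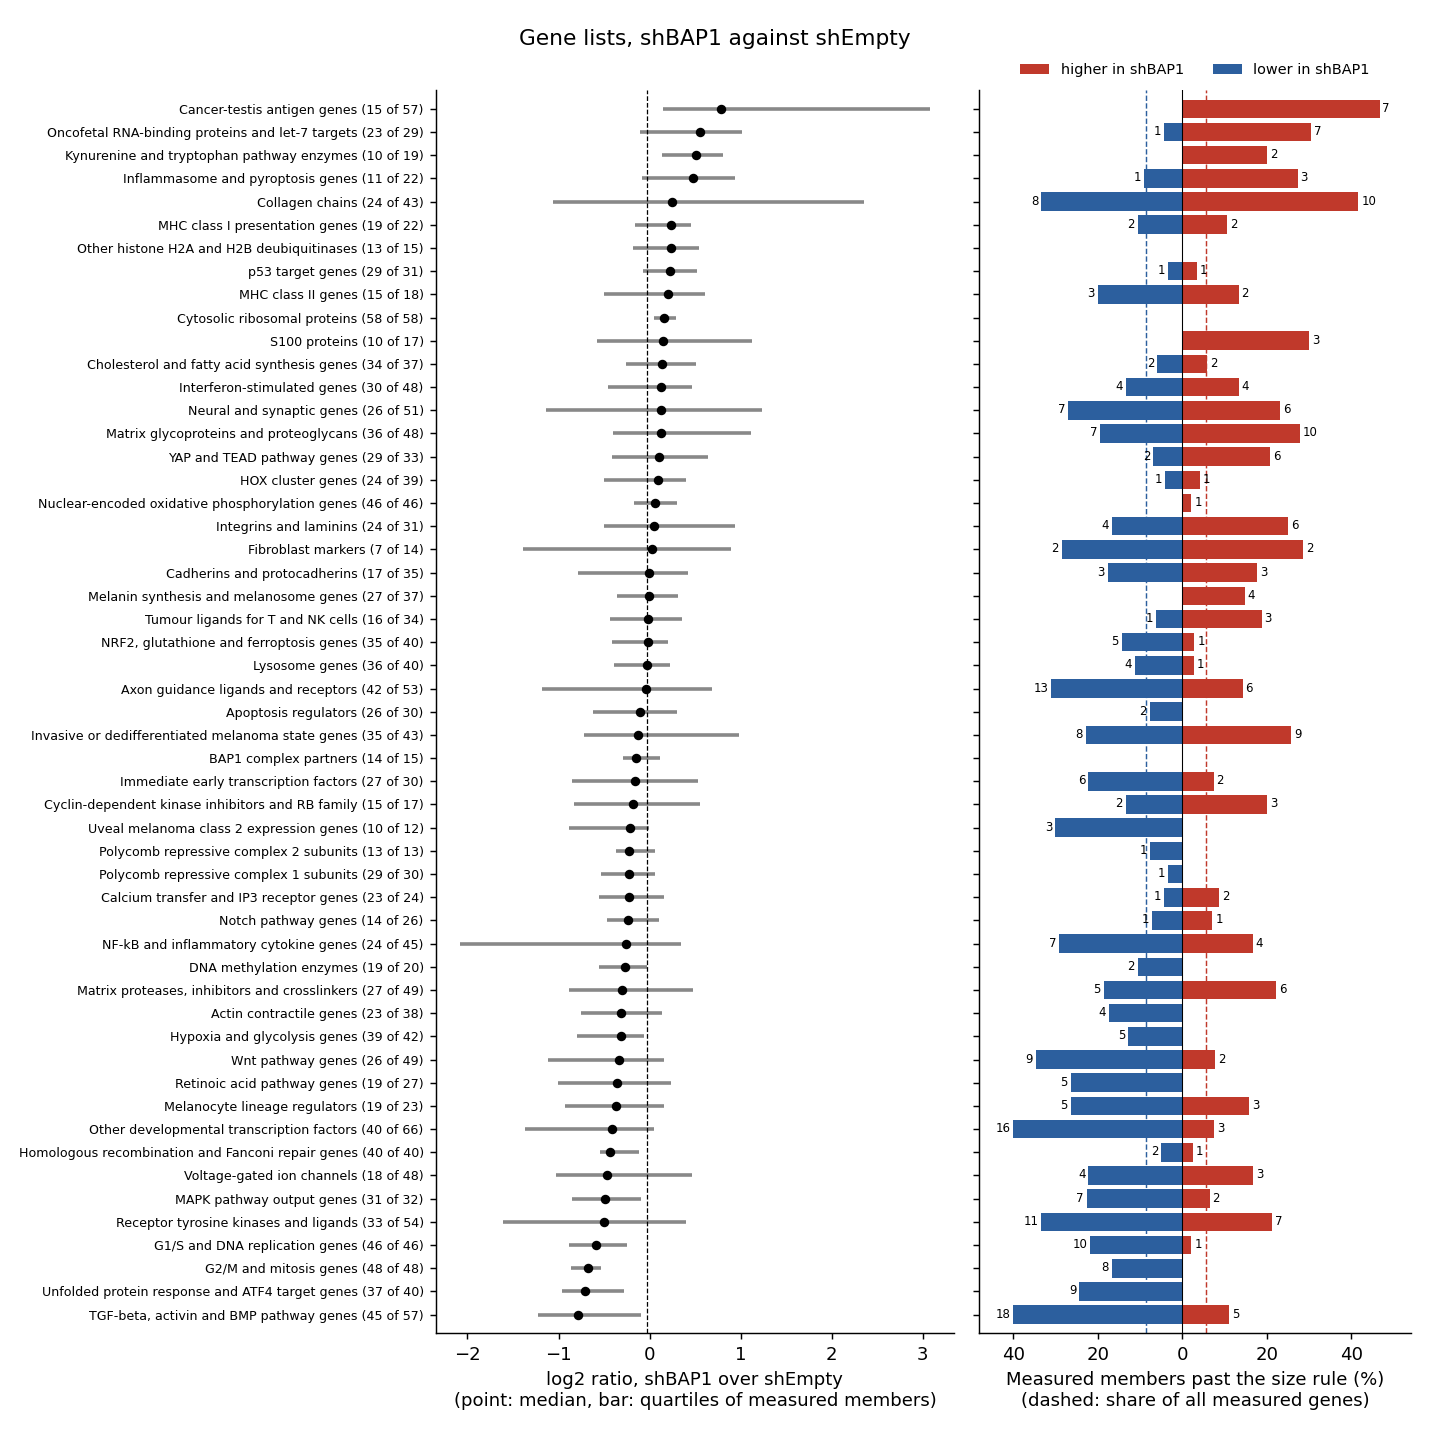
The left panel gives the median and quartiles of the log2 ratio for each list with at least 5 measured members, the numbers in brackets being measured and listed genes. The right panel gives the share of measured members called higher or lower, with the counts beside the bars and the shares over all measured genes (5.53% higher, 8.56% lower) as dashed lines.

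The pigment enzymes TYR, TYRP1 and DCT had high counts in the shBAP1 library, where MITF, the transcription factor known to drive them, was not higher. Tyrosinase (TYR) catalyses the first step of melanin synthesis, and TYRP1 and DCT act further down the same path. All 3 promoters are known to be bound by MITF and its relatives at E-boxes of the form CATGTG. The promoter tables of RefSeq (GRCh38.p14) hold this box in the bases before the start of each gene, shown here with every match in capitals on either strand, since these are the genes on which the pigment result turns. The windows are chr11:89177625-89177874 on the plus strand for TYR, chr9:12693135-12693384 on the plus strand for TYRP1 and chr13:94479683-94479932 on the minus strand for DCT.
TYR: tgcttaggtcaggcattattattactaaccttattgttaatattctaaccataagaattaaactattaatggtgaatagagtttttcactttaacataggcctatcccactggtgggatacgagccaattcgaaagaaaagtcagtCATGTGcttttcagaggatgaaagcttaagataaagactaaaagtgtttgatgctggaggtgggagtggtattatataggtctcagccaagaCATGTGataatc
TYRP1: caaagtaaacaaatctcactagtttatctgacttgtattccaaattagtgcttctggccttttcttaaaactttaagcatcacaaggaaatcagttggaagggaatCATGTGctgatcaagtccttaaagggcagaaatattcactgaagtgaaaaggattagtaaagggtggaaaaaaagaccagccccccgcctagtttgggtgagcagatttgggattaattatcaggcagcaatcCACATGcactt
DCT: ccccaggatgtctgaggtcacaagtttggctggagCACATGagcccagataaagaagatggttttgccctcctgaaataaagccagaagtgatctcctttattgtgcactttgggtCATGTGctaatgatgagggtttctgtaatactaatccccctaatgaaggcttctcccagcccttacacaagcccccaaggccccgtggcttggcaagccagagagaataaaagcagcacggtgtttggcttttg
The matches begin 104 and 12 bases before the start in TYR, 144 and 11 in TYRP1, and 215 and 134 in DCT. CATGTG was found on either strand in 11.1% of all 35116 promoter windows (250 bases before to 50 after a start), and the longer TCATGTG, which contains it, in 2.92%. TCATGTG was present for 9 of the 31 listed pigment genes that have a promoter in the table, beside 3.59% of all 27305 genes with a promoter there. These were TYR, TYRP1, DCT, GPNMB, GPR143, SLC24A5, TSPAN10, BLOC1S3 and GPR137B. A match describes these letters and is not evidence of binding. Only windows with a match were printed. The comparison with all promoters describes a list of known pigment genes and not the difference between the libraries. GPNMB, BLOC1S3 and GPR137B were measured and not called, and GPR143, SLC24A5 and TSPAN10 were under the count minimum.

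TYR had 4, 573 and 0 counts in shEmpty, shBAP1 and shPRAME, TYRP1 had 0, 1037 and 1 counts and DCT had 192, 1668 and 6 counts. All 3 were thus high in shBAP1 only, and TYR and TYRP1 were measured through that library alone. As levels, DCT had 10.2, 112 and 0.328 CPM and was 10.96-fold higher (9.44 to 12.8), beside 181-fold (70.2 to 666) for TYR and at least 436-fold for TYRP1. The copper transporter ATP7A, which supplies tyrosinase with its metal, had 21.5, 47.3 and 26.3 CPM and was 2.20-fold higher. MITF, by contrast, had 309.9, 239 and 114 CPM, a log2 ratio of -0.38, and SOX10 a log2 ratio of -0.47. Of 37 listed genes for melanin synthesis and melanosomes, 27 were measured, 4 were higher (the genes above), none was lower, and the median was -0.01. With chromosome medians subtracted 4 were higher and 3 lower. GPNMB, a melanosome glycoprotein whose promoter holds the same box, had 788, 989.7 and 305 CPM and a log2 ratio of 0.33. The melanosome motor MYO5A (507, 256 and 182 CPM) had a log2 ratio of -0.98, just inside the limit. Of the 10 members under the count minimum 6 had more counts in shBAP1 than in shEmpty, 3 had fewer and 1 had none in either. The 3 with the most counts in shBAP1 were the tetraspanin TSPAN10 (3, 48 and 24 counts), PMEL, the melanosome fibril protein (6, 34 and 8 counts), and MLANA (3, 19 and 7 counts).

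**Figure D4:**
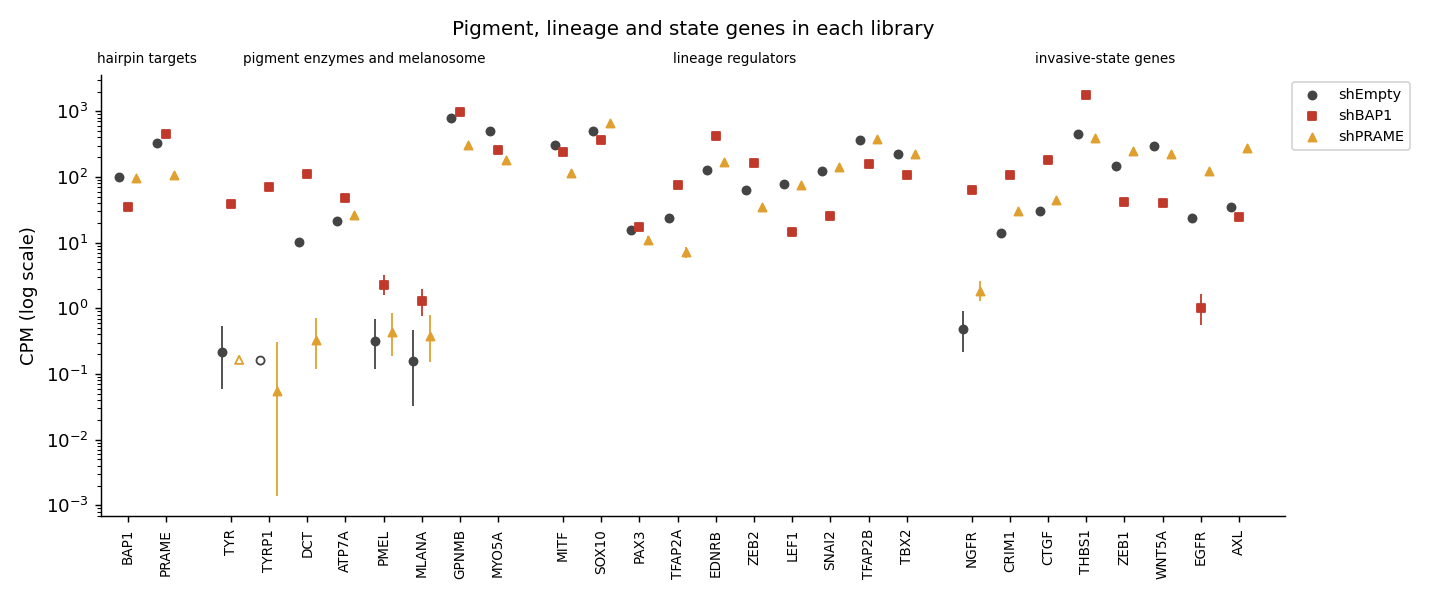
Levels (CPM, log scale) of the hairpin targets and of pigment, lineage and invasive-state genes in the 3 libraries, with exact 95% Poisson intervals as bars and open symbols for libraries without a count, drawn at the floor of 3 counts. TYR, TYRP1, DCT and NGFR lie far above the other libraries in shBAP1, whereas MITF and SOX10 do not.

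Regulators of the melanocyte lineage split. Of 23 listed regulators 19 were measured, 3 were higher and 5 lower, and the median was -0.37. EDNRB, the endothelin receptor that marks melanoblasts, had 126, 414 and 169 CPM and was 3.30-fold higher (3.14 to 3.46). TFAP2A, a partner of MITF at pigment genes, had 24.0, 74.9 and 7.11 CPM and was 3.13-fold higher (2.80 to 3.50), and ZEB2, a factor of the differentiated state, had 63.8, 165 and 35.4 CPM and was 2.58-fold higher (2.41 to 2.77). On the lower side stood LEF1, the nuclear factor of canonical Wnt signalling, at 79.1, 14.3 and 74.3 CPM and 5.52-fold lower (4.78 to 6.40). SNAI2, a neural crest factor on chromosome 8, had 124, 25.5 and 140.1 CPM and was 4.88-fold lower (4.37 to 5.45). The MITF target BCL2A1, an antiapoptotic gene, was 2.55-fold lower, TFAP2B 2.32-fold lower and the T-box repressor TBX2 2.05-fold lower. SOX10, ERBB3 and MITF, the most abundant of the list by CPM, were not called, and ERBB3 had a log2 ratio of -0.05. Under the minimum, the MITF relative TFEC had 4, 51 and 0 counts and IRF4, a pigment regulator, 18, 52 and 1 counts. Both were chosen after their values were seen. KIT and TFEB, also under the minimum, are not given, so no direction of the unmeasured regulators is stated.

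Genes of the invasive or dedifferentiated melanoma state were called in both directions. Of 43 listed genes 35 were measured, 9 were higher and 8 lower, and the median was -0.13. NGFR, the nerve growth factor receptor of neural crest-like cells, had 9, 953 and 34 counts and was 134-fold higher (70.1 to 293). It was measured through shBAP1 alone. CRIM1, a membrane antagonist of bone morphogenetic proteins, had 14.04, 108 and 30.1 CPM and was 7.67-fold higher (6.73 to 8.77), and the matricellular genes CTGF and THBS1 were 6.08-fold higher and 3.90-fold higher. Other members were lower. INHBA, which encodes the activin A subunit, had 99.6, 3.10 and 1825 CPM and was 32.2-fold lower (24.0 to 44.1). EGFR had 23.5, 1.01 and 122 CPM and was 23.2-fold lower (13.9 to 41.9), WNT5A had 300.1, 39.7 and 227 CPM and was 7.55-fold lower (6.94 to 8.23), and PDGFRA, a receptor of platelet-derived growth factors, was 6.31-fold lower. The mesenchymal transcription factors parted by gene, with ZEB1 (145, 42.2 and 248 CPM) 3.43-fold lower (3.14 to 3.75), TWIST1 (131, 53.01 and 158 CPM) 2.47-fold lower (2.28 to 2.68) and ZEB2 higher as given above. The receptor tyrosine kinase AXL had 35.0, 24.2 and 279.7 CPM and a log2 ratio of -0.53. The abundant members SERPINE2, TNC and CD44 had log2 ratios of -0.10, -0.26 and -0.47.

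The TGF-beta, activin and bone morphogenetic protein (BMP) genes had the lowest median of the lists with at least 5 measured members. Of 57 listed genes 45 were measured, 18 were lower and 5 higher, and the median was -0.78. The shares were 40% lower and 11.1% higher, beside 8.56% and 5.53% of all measured genes. With chromosome medians subtracted 15 were lower and 5 higher, and the median was -0.75. In this family, ligands bind paired receptor kinases that phosphorylate SMAD proteins, and secreted antagonists and inhibitory SMADs close the loop. Among ligands, INHBA is given above, BMP2 had 39.6, 4.31 and 47.1 CPM and was 9.19-fold lower (7.11 to 12.1), BMP6 had 14.9, 2.69 and 49.0 CPM and was 5.53-fold lower (3.96 to 7.90) and TGFB1 had 60.2, 23.3 and 241 CPM and was 2.58-fold lower (2.29 to 2.92). BMP7, under the count minimum, had 130, 2 and 0 counts. It was picked from 12 such members after its value was seen, and the others are not given. The secreted antagonist follistatin (FST) was 5.27-fold lower and BAMBI, a pseudoreceptor, 2.10-fold lower. Among signal transducers, SMAD3 (139, 59.7 and 198 CPM) was 2.33-fold lower (2.16 to 2.52), SMAD9 had 57, 3 and 185 counts and was 15.1-fold lower (4.90 to 75.2), and the receptor BMPR1A was 2.08-fold lower. Feedback genes were among the lower ones. PMEPA1, a TGF-beta-induced inhibitor of SMAD signalling, had 621, 62.2 and 866 CPM and was 9.97-fold lower (9.33 to 10.7). The SMAD corepressor SKIL was 2.96-fold lower and the inhibitory SMAD6 and SMAD7 were 2.35-fold lower and 2.04-fold lower. SMAD7 lies on chromosome 18.

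Of the 4 ID genes, which encode inhibitors of helix-loop-helix factors and are classical BMP targets, 3 were lower. ID1 had 108, 41.4 and 225 CPM and was 2.60-fold lower (2.37 to 2.85), ID2 had 14.8, 7.21 and 13.5 CPM and was 2.06-fold lower (1.64 to 2.60), and ID3 had 90.5, 21.3 and 98.2 CPM and was 4.25-fold lower (3.77 to 4.81). ID4 had 25.2, 34.2 and 14.3 CPM and a log2 ratio of 0.44. The call of ID2 was lost with total-count and with upper-quartile scaling. The genes called higher in the family were FSTL5, a follistatin-like secreted gene (0, 554 and 20 counts, at least 233-fold higher), the BMP antagonist CHRDL1 (2, 16 and 2341 counts, 10.1-fold higher (2.37 to 90.5)) and, nearer the limit, ACVR2A (2.44-fold higher), BMP8A (2.31-fold higher) and the coreceptor TGFBR3 (2.08-fold higher). FSTL5 was measured through shBAP1 alone, and CHRDL1 and BMP8A largely through counts in shPRAME. TGFBI, a matrix gene named for its induction by TGF-beta and the most abundant member by CPM, had 767, 956 and 1184 CPM and a log2 ratio of 0.32.

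Collagen genes were called in both directions. Of 43 listed chains 24 were measured, and 18 of these were called, 10 higher and 8 lower. Of the 10 higher chains 3, COL8A1 among them, were measured through shBAP1 alone. The median was 0.24 and became -0.88 with a count minimum of 200. The 3 measured chains of collagen VI, a microfibrillar collagen around cells, were lower. COL6A3 had 10413, 68 and 24928 counts, or 556, 4.58 and 1363 CPM, and was 121-fold lower (95.6 to 156). COL6A2 had 281, 73.8 and 1876 CPM and was 3.82-fold lower and COL6A1 had 219, 87.7 and 1303 CPM and was 2.50-fold lower. The basement membrane chains COL4A1 (1023, 506 and 533 CPM) and COL4A2 (1521, 745 and 1925 CPM) were 2.02-fold lower and 2.04-fold lower, and COL15A1, also of basement membranes, had 349, 7.54 and 156 CPM. Fibrillar chains stood on the other side. COL5A2 had 238, 733 and 900.4 CPM and was 3.08-fold higher (2.98 to 3.19), COL5A1 had 3, 186 and 75 counts and was 78.3-fold higher (26.4 to 383), and COL1A2 had 6.35, 170.4 and 670.0 CPM and was 26.8-fold higher (22.3 to 32.5). The other chain of collagen I, COL1A1, had 1, 3 and 23 counts, and COL3A1, also under the minimum, had 1, 66 and 13 counts. Both were picked from 19 chains under the minimum after their values were seen, and the others are not given. COL8A1, a short-chain collagen, had 0.854, 56.4 and 0.438 CPM and was 66.0-fold higher (40.4 to 116), and COL11A1 and COL14A1 were 12.2-fold higher and 8.37-fold higher. COL22A1 had 166, 2 and 11642 counts and was 65.8-fold lower (17.9 to 548).

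Matrix glycoproteins and proteoglycans were called in both directions. Of 48 listed matrix glycoproteins and proteoglycans 36 were measured, 10 were higher and 7 lower, and the median was 0.12 beside a mean of -0.18, so the sign depended on the summary. FN1 (fibronectin) had 1361, 3205 and 10557 CPM and was 2.36-fold higher (2.32 to 2.39), SPP1 (osteopontin) had 17.4, 151 and 25.9 CPM and was 8.69-fold higher (7.73 to 9.79), and VCAN (versican) had 25.6, 95.6 and 63.0 CPM and was 3.74-fold higher (3.37 to 4.16). BGN (biglycan) had 81.1, 1.75 and 98.6 CPM and was 46.3-fold lower (31.5 to 71.1), and ELN (elastin) had 21.3, 1.28 and 33.7 CPM and was 16.7-fold lower (10.5 to 28.0). NELL1 had 726, 6 and 4 counts and was measured through shEmpty alone. The fibulins FBLN1 and FBLN5 were 9.90-fold lower and 7.06-fold lower. SPARC and TNC, abundant by CPM, had log2 ratios of -0.60 and -0.26. Outside the list, but among the largest falls in CPM, were the aggregating proteoglycan ACAN (718, 47.8 and 138 CPM, 15.04-fold lower (13.9 to 16.2)) and HAPLN1, the link protein that ties it to hyaluronan (978, 88.2 and 2171 CPM, 11.1-fold lower (10.5 to 11.7)). CSPG4, a melanoma cell-surface proteoglycan, had 1295, 447 and 3095 CPM and was 2.90-fold lower.

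Proteases and crosslinkers likewise went both ways. Of 49 listed genes 27 were measured, 6 were higher and 5 lower, and the median was -0.30. The collagenases MMP8 (8.43, 131 and 2.41 CPM) and MMP1 (6.56, 36.8 and 16.9 CPM) were 15.5-fold higher (13.2 to 18.4) and 5.61-fold higher (4.61 to 6.88), the gelatinase MMP2 (21.99, 92.0 and 147 CPM) was 4.18-fold higher (3.75 to 4.68), and the collagen lysyl hydroxylase PLOD2 was 4.26-fold higher. LOXL4, a lysyl oxidase, had 1472, 358 and 1433 CPM and was 4.11-fold lower (3.99 to 4.23). ADAMTS9 and ADAMTS6, secreted metalloproteases, were 12.998-fold lower and 10.2-fold lower and the inhibitor TIMP1 was 3.02-fold lower. TIMP3, more abundant by CPM, had 2439, 1257 and 2053 CPM and a log2 ratio of -0.96.

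**Figure D5:**
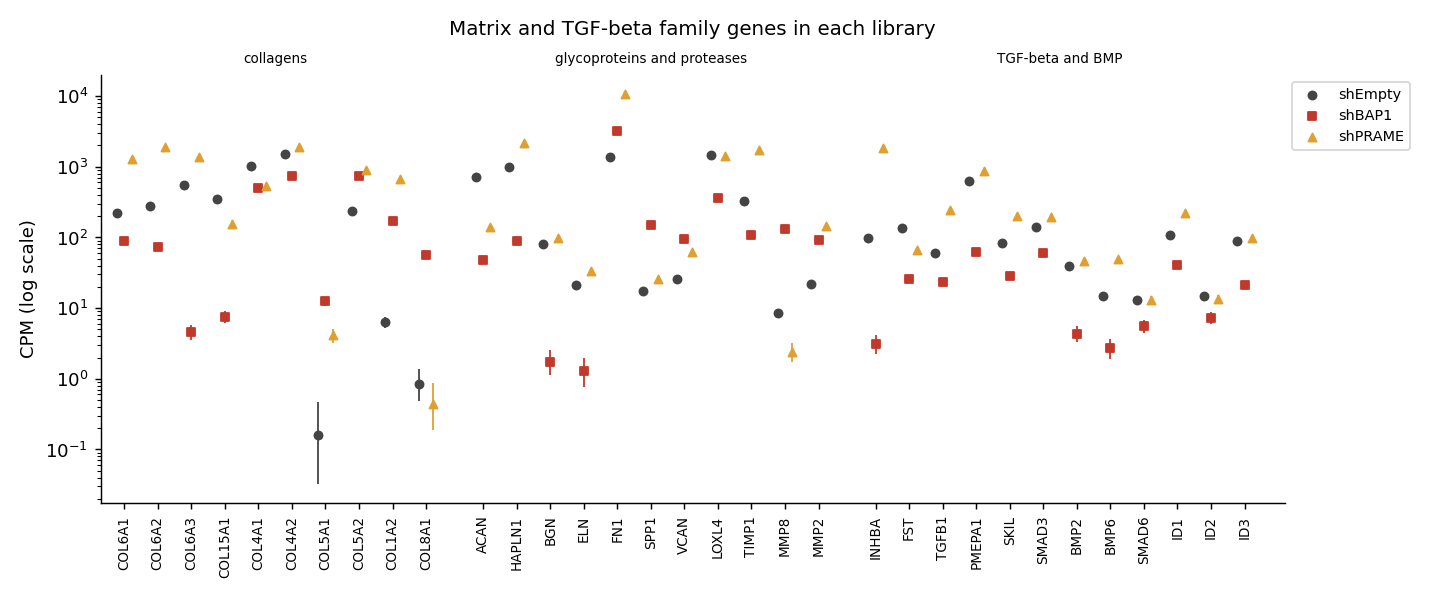
Levels (CPM, log scale) of collagen, other matrix and TGF-beta family genes in the 3 libraries, with exact 95% Poisson intervals as bars. Collagen VI, COL15A1, ACAN, HAPLN1, BGN, INHBA, PMEPA1, ID1, ID2 and ID3 lie lowest in shBAP1, and COL8A1, SPP1, VCAN and MMP8 highest.

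Receptors that hold cells to these matrices changed by subunit. Of 31 listed integrin and laminin genes 24 were measured, with 6 higher and 4 lower (4 and 2 with chromosome medians subtracted) and a median of 0.04. ITGA10, a collagen receptor of cartilage, had 261, 36.3 and 589 CPM and was 7.18-fold lower (6.57 to 7.87), and ITGA5, the fibronectin receptor subunit, had 523, 208 and 915 CPM and was 2.52-fold lower. ITGA4, which also binds fibronectin and VCAM1, had 123, 359.6 and 102 CPM and was 2.92-fold higher, and the laminin receptor ITGA6 had 306, 657 and 149 CPM and was 2.15-fold higher. LAMA1 and LAMA3, laminin chains of chromosome 18, were 2.68-fold lower and 2.53-fold lower. The abundant laminin chains LAMC1 and LAMB1 had log2 ratios of 0.14 and 0.04. Of 35 listed cadherins 17 were measured, 3 were higher and 3 lower. CDH18 was 7.85-fold lower and the planar polarity cadherins CELSR1 and CELSR2 went opposite ways, CELSR1 (61.2, 18.4 and 76.6 CPM) 3.33-fold lower and CELSR2 (10.7, 49.0 and 2.46 CPM) 4.57-fold higher. CDH19, a Schwann cell and melanocyte precursor cadherin on chromosome 18, had 47.2, 110.1 and 166 CPM and was 2.33-fold higher.

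Receptor tyrosine kinases and their ligands were called in both directions. Of 54 listed receptor tyrosine kinases and ligands 33 were measured, 11 were lower and 7 higher, and the median was -0.50. The shares were 33.3% lower and 21.2% higher, beside 8.56% and 5.53% of all measured genes. The 11 lower genes were 9 receptors and 2 ligands, and the 7 higher genes were 5 ligands and 2 receptors. FGFR2 had 436, 1 and 1 counts, was measured through shEmpty alone and was 345-fold lower (61.7 to 13675). FGFR1 (26.8, 5.39 and 110.2 CPM, chromosome 8) was 4.98-fold lower (3.93 to 6.39), and FGFR3 was 4.07-fold lower. The VEGF receptor KDR had 78.8, 11.5 and 31.3 CPM and was 6.88-fold lower (5.87 to 8.11), and ALK and ROR1 were 3.19-fold lower and 3.05-fold lower. The lower ligands were HGF, which binds MET (11.8, 0.674 and 16.1 CPM, 17.5-fold lower (9.34 to 37.0)), and GAS6, which binds AXL (2.67-fold lower). Of the higher ligands, TGFA and HBEGF, which bind EGFR, were 3.62-fold higher and 3.44-fold higher, the KIT ligand KITLG was 3.01-fold higher, and PDGFC and FGF1 were 6.02-fold higher and 4.35-fold higher. The higher receptors were DDR1, a collagen receptor on chromosome 6 (2.98-fold higher), and TIE1, a vascular receptor that had 3, 11 and 359 counts, was 4.63-fold higher (1.22 to 25.8) and was measured through shPRAME.

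Genes that report signalling through the MAPK pathway, which mutant BRAF drives in A375 cells, were called lower more often than higher. Of 32 listed output genes 31 were measured, 7 were lower and 2 higher, and the median was -0.49. These were 22.6% and 6.45% of the measured members, beside 8.56% and 5.53% of all measured genes. CCND1 (cyclin D1) had 558, 134 and 844 CPM and was 4.17-fold lower (3.98 to 4.38), EGR1 had 155, 24.5 and 419 CPM and was 6.34-fold lower (5.69 to 7.10), and CXCL8 (interleukin 8) had 51.9, 11.5 and 2208 CPM and was 4.53-fold lower (3.85 to 5.36). The phosphatase DUSP5 was 2.64-fold lower and EMP1 2.68-fold lower. The feedback genes SPRY4 (862, 512 and 1256 CPM) and DUSP4 (694, 376 and 344 CPM) had log2 ratios of -0.75 and -0.88, below the limit. SPRY1, by contrast, was 3.85-fold higher and EPHA2 3.19-fold higher. Among 27 measured immediate early factors of 30 listed, 6 were lower and 2 higher (median -0.16). Besides EGR1, the related zinc finger factors EGR2 and EGR3 were 15.5-fold lower (7.98 to 34.4) and 9.14-fold lower (7.80 to 10.8). KLF4 and KLF10 were 4.11-fold lower and 3.43-fold lower, while JUN had 15.3, 34.4 and 25.5 CPM and was 2.25-fold higher. EGR3 and KLF10 lie on chromosome 8.

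Calls among Wnt genes leaned lower and those among YAP and TEAD genes higher. Of 49 listed Wnt pathway genes 26 were measured, 9 were lower and 2 higher, and the median was -0.33. The shares were 34.6% lower and 7.69% higher, beside 8.56% and 5.53% of all measured genes. Besides WNT5A and LEF1, the receptors FZD1 (175, 37.3 and 159 CPM), FZD4 (153, 40.6 and 28.9 CPM) and FZD9 (8.75, 1.82 and 15.8 CPM) were 4.71-fold lower, 3.76-fold lower and 4.81-fold lower. The secreted antagonist SFRP1 (457, 206 and 965 CPM; chromosome 8) was 2.22-fold lower, and APC, which marks beta-catenin for destruction, was 2.16-fold higher, as was the antagonist family member DKK3 (2.47-fold higher). CTNNB1 (beta-catenin) had 278, 331 and 195 CPM and a log2 ratio of 0.25. Of 33 listed YAP and TEAD genes 29 were measured, 6 were higher and 2 lower (median 0.10), shares of 20.7% and 6.90%. AMOTL2, an inhibitor that YAP induces, had 8.33, 60.8 and 1.91 CPM and was 7.31-fold higher (6.16 to 8.72), and RBMS3 had 3.79, 33.1 and 3.94 CPM and was 8.73-fold higher (6.79 to 11.4). CTGF is given above, and the coactivators WWTR1 (TAZ) and YAP1 had log2 ratios of 0.10 and -0.34. Of 14 measured Notch genes (26 listed) 1 was higher, the ligand JAG1 (3.04-fold higher), and 1 lower, DLL3 (3.60-fold lower). DLK1, a noncanonical Notch ligand under the count minimum, had 95, 0 and 7 counts. It was picked from 12 such members after its value was seen, and the others are not given.

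Axon guidance genes were called in both directions. Of 53 listed genes 42 were measured, 13 were lower and 6 higher, while 21 had a negative and 21 a positive log2 ratio and the median was -0.04. The called shares were 31.0% lower and 14.3% higher, beside 8.56% and 5.53% of all measured genes. EPHB3 had 31.9, 2.09 and 41.3 CPM and was 15.3-fold lower (10.7 to 22.7), and EPHB2 had 40.9, 7.88 and 340.3 CPM and was 5.19-fold lower (4.27 to 6.36). NTN1 (netrin) had 38.1, 2.69 and 8.53 CPM and was 14.1-fold lower (10.3 to 19.97), and its receptor DCC, on chromosome 18, was 5.10-fold lower. PLXNA2, a semaphorin receptor, had 64.5, 7.01 and 499 CPM and was 9.20-fold lower (7.53 to 11.4), and SEMA6D was 9.87-fold lower. The secreted semaphorins SEMA3C (44.9, 162 and 40.4 CPM) and SEMA3E were 3.61-fold higher and 3.50-fold higher, SEMA6B was 11.3-fold higher and the receptor EPHA2 3.19-fold higher. NRP2, their coreceptor, had a log2 ratio of 0.35.

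Most proliferation genes had negative log2 ratios in shBAP1, and a minority passed the limit. In the G2/M and mitosis list all 48 genes were measured, 47 had a negative log2 ratio, 8 were lower and none higher (median -0.68). CDK1, the mitotic kinase, had 208, 74.2 and 53.6 CPM and was 2.80-fold lower (2.62 to 2.99). UBE2C, the ubiquitin-conjugating enzyme of the anaphase-promoting complex, was 2.70-fold lower, and MYBL2 and PTTG1 (securin) were both 2.12-fold lower. MKI67, the proliferation marker, had 787, 405 and 242 CPM and a log2 ratio of -0.96, and CENPF and TOP2A had -0.48 and -0.75. In the G1/S and replication list all 46 genes were measured, 42 had a negative log2 ratio, 10 were lower and 1 higher, and the median was -0.58. Thymidylate synthase (TYMS; chromosome 18) was 3.18-fold lower, thymidine kinase (TK1) 2.59-fold lower, MCM4 (chromosome 8) 2.35-fold lower and E2F1 2.09-fold lower. With chromosome medians subtracted 7 were lower and the median was -0.57.

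The G1 kinases and brakes did not all follow. CDK6, the G1 kinase, had 93.8, 296 and 58.0 CPM and was 3.15-fold higher (2.98 to 3.33) while its partner CCND1 was lower. Of 17 listed genes for kinase inhibitors and the RB family 15 were measured, with 3 higher and 2 lower (1 and 1 with chromosome medians subtracted). RB1 had 77.7, 163 and 70.0 CPM and was 2.11-fold higher, and the repressor E2F4 was 2.03-fold higher. CDKN1A (p21) had 102, 190.2 and 155 CPM and a log2 ratio of 0.90. All 40 homologous recombination and Fanconi genes were measured, 33 with a negative log2 ratio, but 2 were lower and 1 higher. RAD50, of the MRN complex, had 20.7, 80.6 and 75.9 CPM and was 3.89-fold higher (3.47 to 4.37). RBBP8 (chromosome 18) and RAD54B (chromosome 8) were 2.63-fold lower and 2.61-fold lower, and neither was called with chromosome medians subtracted. Of 31 listed p53 targets 29 were measured, with 1 higher, EDA2R (3.79-fold higher), and 1 lower, SESN2 (2.57-fold lower). Of 26 measured apoptosis regulators (30 listed) BOK (3.32-fold lower) and BCL2A1 were lower and none was higher, and the median of -0.11 became 0.01 with total-count scaling.

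Among stress response genes 9 were called lower and none higher. Of 40 listed genes of the unfolded protein response and ATF4, 37 were measured, 33 had a negative log2 ratio, 28 were not called and the median was -0.70. The share called lower was 24.3%, beside 8.56% of all measured genes. Of the 9 lower genes 2, CHAC1 among them, were measured through shEmpty alone. The lower genes include targets of ATF4, the factor of amino acid stress. CHAC1, which degrades glutathione, had 17.7, 1.82 and 2.35 CPM and was 9.74-fold lower (6.58 to 15.01). ASNS (asparagine synthetase) had 168, 45.8 and 36.9 CPM and was 3.68-fold lower (3.38 to 3.9995), and the serine synthesis enzymes PHGDH (168, 63.7 and 51.9 CPM) and PSAT1 (223, 93.9 and 23.9 CPM) were 2.64-fold lower and 2.38-fold lower. ATF4 itself had 409, 243 and 177 CPM and a log2 ratio of -0.75. The chaperones HSP90B1 and HSPA5, targets of the other arms, had log2 ratios of -0.52 and -0.28.

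SLC7A11, the cystine transporter that BAP1 has been described to repress, belongs to this list as well. It had 304, 127 and 49.1 CPM and was 2.39-fold lower (2.27 to 2.52) in shBAP1, and lower again in shPRAME. Among 35 measured NRF2, glutathione and ferroptosis genes (40 listed), 5 were lower and 1 higher, and the median was -0.02. CHAC1, measured through shEmpty alone, and SLC7A11 are among the 5. AKR1C1 and AKR1C3, aldo-keto reductases of NRF2, were 4.47-fold lower and 2.69-fold lower, with sequences close enough that reads could be split between them. Thioredoxin (TXN) had 155, 38.0 and 74.7 CPM and was 4.07-fold lower (3.72 to 4.46). The efflux pump ABCC2 had 6.14, 211 and 46.2 CPM and was 34.5-fold higher (28.6 to 41.9), and NQO1, the usual NRF2 reporter, was not called (518, 589 and 479 CPM, a log2 ratio of 0.19). The ferritin chains FTH1 and FTL had log2 ratios of 0.71 and 0.90. Of 23 measured calcium transfer genes (24 listed) ITPR1, an IP3 receptor, was 2.43-fold lower, and the phospholipases PLCB4 and PLCE1 were 2.66-fold higher and 6.71-fold higher. ITPR3, the receptor isoform tied to BAP1, had 366, 259 and 682 CPM and a log2 ratio of -0.50.

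Few genes of ribosomes and respiration were called. None of the 58 cytosolic ribosomal protein genes was called (median 0.16). Of 46 nuclear oxidative phosphorylation genes only PPARGC1A, the coactivator of mitochondrial biogenesis, was called, at 9.23, 21.0 and 0.656 CPM and 2.28-fold higher, with a list median of 0.06. Of 39 measured hypoxia and glycolysis genes (42 listed) 5 were lower and none higher (median -0.31). The share called lower was 12.8%, beside 8.56% of all measured genes. Enolase 2 (ENO2) had 118, 37.2 and 76.0 CPM and was 3.17-fold lower, and PFKP and PFKFB3, which set the phosphofructokinase step, were 2.62-fold lower and 2.48-fold lower. GAPDH had 5724, 4427 and 3397 CPM and a log2 ratio of -0.37. Of 34 measured lipid synthesis genes (37 listed) 2 were higher and 2 lower (median 0.14). ACSS2, which makes acetyl-CoA from acetate, had 267, 20.7 and 177 CPM and was 12.9-fold lower (11.5 to 14.5), whereas FASN and SCD had log2 ratios of 0.20 and 0.62. Of 36 measured lysosome genes (40 listed) 4 cathepsins were lower, CTSH (4.97-fold lower), CTSF (2.86-fold lower), CTSS (2.71-fold lower) and CTSB (2.15-fold lower), the last on chromosome 8, and the sialidase NEU1 was higher. The share of lysosome genes called lower, 11.1%, was near the 8.56% of all measured genes, and 2.78% were higher, beside 5.53%.

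Antigen presentation genes were called in both directions. Of 18 listed MHC class II genes 15 were measured, 2 were higher and 3 lower, and the median was 0.20 beside a mean of -0.42. HLA-DQA1 had 25.8, 0.808 and 48.9 CPM and was 31.9-fold lower (18.1 to 62.2), and HLA-DQB1 had 16.3, 1.15 and 60.2 CPM and was 14.2-fold lower (8.73 to 24.7). In the same library HLA-DRA had 70.0, 143 and 0.164 CPM and was 2.04-fold higher, and HLA-DPA1 was 2.04-fold higher. CD74, the invariant chain, had 232, 356 and 0.930 CPM and a log2 ratio of 0.62, and the transactivator CIITA -0.19. Of 19 measured class I presentation genes (22 listed) 2 were higher and 2 lower. HLA-B had 244, 69.1 and 341 CPM and was 3.54-fold lower and HLA-C had 253, 103 and 385 CPM and was 2.46-fold lower. The peptide-loading gene TAPBP and the immunoproteasome gene PSMB8 were 2.02-fold higher and 2.05-fold higher. The HLA genes, TAPBP and PSMB8 lie on chromosome 6, whose median was 0.40. With chromosome medians subtracted none of the 4 class I and II genes called higher kept its call, and the class I median moved from 0.24 to -0.01. HLA genes are close paralogs and their reads may be shared.

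Interferon and inflammatory genes had no common direction. Of 30 measured interferon-stimulated genes (48 listed) 4 were higher and 4 lower (median 0.13). IFITM2 (2.67, 19.3 and 6.13 CPM) was 7.24-fold higher (5.35 to 9.99) while its neighbour and near copy IFITM1 (20.5, 7.21 and 20.9 CPM) was 2.85-fold lower, so reads may be split between them. MX2, an antiviral GTPase, was 2.14-fold lower and IRF7, the interferon regulator, 2.89-fold lower. IFI44, under the minimum, had 1, 88 and 14 counts. It was picked from 18 members under the minimum after its value was seen, and the others are not given. Among 24 measured NF-kB and cytokine genes (45 listed), 7 were lower and 4 higher, and the median was -0.26. PTGS2 and PTGES, consecutive enzymes of prostaglandin E synthesis, had 18.5, 1.95 and 54.4 CPM and 31.0, 0.606 and 143 CPM and were 9.45-fold lower (6.46 to 14.3) and 51.1-fold lower (26.8 to 112). LIF, an interleukin 6 family cytokine, was 4.15-fold lower and IL11, of the same family, 20.6-fold lower (3.38 to 845). IL11 had under 50 counts in both compared libraries and was measured through shPRAME. IL24 had 7, 351 and 59 counts and was 63.3-fold higher (30.4 to 159), and CSF1 and TRAF1 were 2.71-fold higher and 4.72-fold higher.

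NLRP1, the inflammasome sensor, was 1 of 3 genes called higher in its list. It had 4, 695 and 504 counts, and 11 of 22 listed inflammasome and pyroptosis genes were measured, with 3 higher and 1 lower (median 0.47). These were 27.3% and 9.09% of the measured members, beside 5.53% and 8.56% of all measured genes. CARD8, a related sensor, had 11.05, 28.0 and 20.8 CPM and was 2.54-fold higher, and the thioredoxin inhibitor TXNIP was 2.33-fold higher. The pore-forming gasdermin E, here DFNA5, was 2.06-fold lower, and CASP1, the protease of the pathway, had 1, 22 and 3 counts and was under the count minimum. CASP1 was picked from 11 such members after its value was seen. Among ligands for T and NK cells, 16 of 34 listed were measured. TNFRSF14, the ligand of BTLA, had 11, 251 and 6 counts and was 28.8-fold higher (15.8 to 58.4), NT5E (CD73) was 2.26-fold higher, and galectin 3 (LGALS3) had 297, 117 and 110.0 CPM and was 2.53-fold lower. TNFRSF14 was measured through shBAP1 alone.

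Developmental transcription factors, classical Polycomb targets, were called lower more often than higher. Of 66 listed non-HOX factors 40 were measured, 16 were lower and 3 higher, and the median was -0.42. The share called lower, 16 of 40, stood beside 8.56% of all measured genes. EMX2 had 12.2, 1.01 and 0 CPM and was 12.1-fold lower (7.18 to 21.97), and FOXF1 had 29.4, 3.84 and 27.1 CPM and was 7.65-fold lower (5.81 to 10.2). The homeobox genes SIX4 and ALX1 were 4.56-fold lower and 4.203-fold lower, and TBX3 had 194, 49.2 and 401 CPM and was 3.94-fold lower. The higher genes were SOHLH2 (1, 782 and 4 counts), a germline factor, FOXD3 (7.15, 33.0 and 3.01 CPM, 4.62-fold higher (3.81 to 5.63)), a neural crest pioneer factor, and LHX8 (2.07-fold higher). SOHLH2 was measured through shBAP1 alone and EMX2 through shEmpty alone. PRRX1, RUNX1 and SOX5, abundant by CPM, had log2 ratios of 0.03, 0.04 and -0.37.

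In the HOX clusters 1 gene was called in each direction. Of 39 listed HOX genes 24 were measured and the median was 0.10. The shares called were 4.17% higher and 4.17% lower, beside 5.53% and 8.56% of all measured genes. HOXA11 had 7, 95 and 51 counts and was 17.1-fold higher (7.998 to 43.8), and HOXD9 had 179, 53 and 94 counts and was 2.68-fold lower. HOXB2, HOXC10 and HOXA10 had log2 ratios of -0.41, -0.45 and 0.98, and HOXA10 passed the limit with total-count and with upper-quartile scaling. Of 12 listed genes known to separate class 2 uveal melanoma, the class that loses BAP1, from class 1, 10 were measured, 3 lower and none higher. The list joins genes known to be high in class 2 with genes known to be low in it, so its count has no single direction. ECM1 (279, 136 and 874 CPM, 2.05-fold lower) is of the first kind and LMCD1 (2.33-fold lower) and ID2 are of the second. The serotonin receptor HTR2B, also known to be high in class 2, had 21, 14 and 15 counts.

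Calls among germline and oncofetal genes leaned higher. Of 57 listed cancer-testis genes 15 were measured, 7 were higher and none lower, and the median was 0.78, and 2 listed genes had no row in the table. The share called higher was 46.7%, beside 5.53% of all measured genes. It rests on few members, since 42 were not measured and 2 measured ones had under 50 counts in both compared libraries. MAGEB2 had 2, 209 and 9 counts and was 132-fold higher (36.1 to 1096), and MAGEA1 had 56, 646 and 46 counts and was 14.6-fold higher (11.1 to 19.5). MAGEA11 and MAGEC2 were 3.22-fold higher and 2.36-fold higher, and MAGEA10 had 1, 41 and 119 counts (51.7-fold higher (8.78 to 2093)). MAGEB2 and LIN28B were measured through shBAP1 alone, and MAGE genes share sequence. MAGEA4 and MAGEA3, abundant by CPM, had log2 ratios of 0.61 and -0.30. LIN28B, which blocks maturation of the let-7 microRNAs, had 0, 447 and 22 counts. Of 23 measured oncofetal RNA-binding proteins and let-7 targets (29 listed) 7 were higher and 1 lower (median 0.56). These were 30.4% and 4.35%, beside 5.53% and 8.56% of all measured genes. Apart from LIN28B, the let-7 target FIGN had 0, 170 and 34 counts and was at least 71.5-fold higher. LIN28B counts in both lists, and FIGN, like LIN28B, was measured through shBAP1 alone. The others called higher lay between 2.02-fold (E2F5) and 2.80-fold (ARID3B), and HMGA2 and NRAS, classical let-7 targets, had log2 ratios of -0.20 and 0.23.

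In tryptophan breakdown towards NAD 2 enzymes were higher. Of 19 listed kynurenine and tryptophan genes 10 were measured, and KYNU and QPRT were called. KYNU, kynureninase, had 8, 1023 and 31 counts, and QPRT, which turns quinolinate into a precursor of NAD, had 1, 299 and 4 counts and was 377-fold higher (67.2 to 14955). Both were measured through shBAP1 alone. NAMPT, of the salvage route, and the receptor AHR had log2 ratios of 0.60 and 0.82. In the retinoic acid list 19 of 27 genes were measured, 5 were lower and none higher, and the median was -0.36. STRA6, the receptor for retinol-binding protein, had 51.7, 1.95 and 325 CPM and was 26.4-fold lower (18.3 to 39.7). ALDH1A3, which makes retinoic acid, had 1024, 398 and 1209 CPM and was 2.57-fold lower, and the receptors RXRG and RARG were 2.82-fold lower and 2.08-fold lower.

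Neural genes were called in both directions. Of 51 listed genes 26 were measured, 6 were higher and 7 lower. L1CAM, an adhesion molecule of axons, had 3.63, 145 and 4.32 CPM and was 39.96-fold higher (31.4 to 51.7). S100B, a glial and melanocytic marker, was 2.58-fold higher. NRCAM, the close relative of L1CAM, had 112, 7.81 and 328 CPM and was 14.3-fold lower (11.8 to 17.4). TAC1, which encodes substance P, had 546, 76.3 and 819 CPM and was 7.15-fold lower (6.72 to 7.61), and the synaptic genes SYT1 and NRXN2 were 5.34-fold lower and 7.16-fold lower. Of 18 measured ion channels (48 listed) the sodium channels SCN2A (0, 207 and 6 counts, at least 87.1-fold higher) and SCN9A (3.24-fold higher) were higher, and the potassium channel KCNMA1 (113, 30.3 and 104 CPM) was 3.73-fold lower. SCN2A was measured through shBAP1 alone. Of 10 measured S100 genes (17 listed) S100A4, a protein tied to motility, had 124, 498 and 284 CPM and was 4.03-fold higher, S100A3 was 3.30-fold higher and none was lower. Of 23 measured actin contractile genes (38 listed) 4 were lower and none higher, among them nonmuscle myosin MYH10 (1022, 469 and 736 CPM, 2.18-fold lower). Among 19 measured DNA methylation genes (20 listed) TET1 (2.25-fold lower) and IDH2 (2.18-fold lower) were lower, and DNMT1 had a log2 ratio of -0.41.

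When genes were ordered by the near bound of their interval, the highest genes past those already given included MGST1, a microsomal glutathione transferase (2, 294 and 15 counts, 186-fold higher (50.9 to 1539)), and the splicing regulator CELF2 (1, 303 and 1 counts, 382-fold higher (68.1 to 15154)). The zinc finger gene ZNF208 had 0.907, 90.7 and 3.39 CPM and was 99.9-fold higher (62.2 to 172), and the noncoding transcript OVAAL had 1.01, 87.7 and 2.46 CPM and was 86.5-fold higher (55.2 to 144). FOXR2, a forkhead gene that is silent in most adult tissues, had 0, 196 and 6 counts and was at least 82.5-fold higher. TRIM48 and FBXL7, both of ubiquitin ligase families, had 9, 1658 and 0 counts and 0, 328 and 0 counts, so neither had a count in shPRAME. MGST1, CELF2, OVAAL, FOXR2, TRIM48 and FBXL7 were measured through shBAP1 alone. By contrast, NLRP1, LINC01287 (4, 687 and 469 counts) and FAM133A (4, 647 and 424 counts) were also high in shPRAME.

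At the other end of that ranking, the histone methyltransferase family gene PRDM8 had 432, 1 and 99 counts and was 342-fold lower (61.1 to 13550.1), and the sodium-calcium exchanger SLC8A1 had 241, 1 and 95 counts and was 191-fold lower (33.9 to 7573). The nuclear receptor RORB had 312, 3 and 1208 counts (82.4-fold lower (27.9 to 402)) and the germline cyclin CCNA1 had 161, 1 and 559 counts (128-fold lower (22.6 to 5069)). SOX8, a relative of SOX10, had 98.7, 3.23 and 213 CPM and was 30.5-fold lower (22.9 to 41.5), and the hormone gene STC1, on chromosome 8, had 60.3, 1.62 and 466 CPM and was 37.3-fold lower (24.9 to 58.4). The proton-gated channel ASIC2 had 116, 0 and 153 counts and was at least 30.6-fold lower, and the bicarbonate transporter SLC4A8 had 274, 3 and 261 counts and was 72.4-fold lower (24.5 to 353). The pentraxin NPTX1 had 1084, 16 and 14 counts and was 53.7-fold lower (32.9 to 94.3), VAT1L had 208, 2.42 and 1407 CPM and FGL2 had 37.5, 0.404 and 121 CPM. The cystatins CST1 (181, 0 and 3 counts) and CST2 (567, 5 and 0 counts) are near copies and reads may be shared between them. CST1, CST2 and NPTX1 were also scarce in shPRAME and so were measured through shEmpty alone. VAT1L, RORB, CCNA1, FGL2, SOX8, STC1 and ASIC2 were above the control in shPRAME.

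Genes were also ordered by change in CPM, which weights long and abundant transcripts. Summed over the genes called higher, shBAP1 exceeded the control by 22574 CPM, and over those called lower it fell short by 62350.1 CPM. The largest rises after FN1, THBS1 and COL5A2 were S100A4, ITGA6 and ADGRG1, an adhesion receptor that had 62.8, 372 and 117 CPM and was 5.93-fold higher (5.56 to 6.32). The cytolinker dystonin (DST) had 175, 472 and 179 CPM, and PCLO (piccolo), a presynaptic scaffold, had 7.42, 232 and 17.3 CPM and was 31.3-fold higher (26.4 to 37.3). The protease inhibitor A2M was 2.28-fold higher, the adhesion receptor ADGRG6 (242, 486 and 419.8 CPM) 2.01-fold higher and the secreted scavenger protein LGALS3BP 2.04-fold higher. SERPINA3, an acute-phase protease inhibitor, had the largest fall, at 3106, 1494 and 7985 CPM, and was 2.08-fold lower. The adaptor YWHAZ, on chromosome 8, had 2753, 1321 and 1511 CPM and was 2.08-fold lower. ITIH5, a hyaluronan-binding protein, had 1332, 270.0 and 707 CPM and was 4.93-fold lower, the inositol transporter SLC5A3 had 1147, 201 and 2303 CPM and was 5.72-fold lower, and the glycogen phosphorylase PYGB had 1560.3, 569.6 and 1409 CPM and was 2.74-fold lower. The G-protein subunit GNG12 was 2.68-fold lower, ANK3 (ankyrin G) 4.06-fold lower and the decoy interleukin receptor IL13RA2 2.46-fold lower. The MAPK-induced gene PHLDA1 was 2.03-fold lower.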

How the data were processed

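Total RNA was extracted with TRIzol, messenger RNA was purified, and directional libraries were sequenced as paired reads, per the labels' protocols. The authors deposited whole-number read counts per gene for each library. The submitters' processing notes list edgeR, Cufflinks, TopHat and FastQC and the assembly hg19 (GRCh37). Not given in the sources used here are the counting tool, the annotation and the strand setting, so values of overlapping and antisense genes are uncertain.

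From the deposited counts, TMM factors over the 3 libraries (edgeR 4.0.16, R 4.3.3) gave effective library sizes and CPM. Log2 ratios were taken without a pseudocount, with exact 95% intervals from the conditional binomial distribution (scipy 1.17.1). The size rule was applied to genes whose mean count reached 50, and its code was checked on simulated counts. Of the measured genes 11830 were placed on a chromosome by symbol through RefSeq (GRCh38.p14), a newer build than that of the files, so no coordinate other than those of the printed promoters was taken from it.

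The 56 gene lists and the members were chosen with earlier results of these data known, so they give no independent support. Medians are given for lists with at least 5 measured members. Named genes were BAP1 and PRAME, the 20 highest and 20 lowest by the interval bound nearest no change, the 15 largest rises and falls in CPM, up to 8 called and 3 abundant members per list, and members under the count minimum needed to read a list. Chosen after their values were seen were ACVR2A, ALK, APC, ATF4, AXL, BAMBI, BMP7, BMP8A, BMPR1A, CASP1, CD44, CIITA, COL14A1, COL1A1, COL3A1, COL6A1, COL6A2, CSF1, DDR1, DLK1, E2F1, EZH2, FGF1, FGFR3, GAS6, HBEGF, HCFC1, HTR2B, ID1, ID3, ID4, IFI44, IRF4, ITPR3, KITLG, LHX8, LIF, MLANA, NRAS, PMEL, ROR1, S100A1, SEMA3C, SEMA3E, SKIL, SMAD3, SMAD6, SMAD7, SOX5, TFEC, TGFA, TGFB1, TGFBR3, TSPAN10, TWIST1, VCAN, YAP1 and ZEB1. Alternatives were scaling by DESeq2 (1.42.0) size factors, by total count and by upper quartile, TMM from the 2 compared libraries, other count minima and fold limits, the mean, a pseudocount, and subtraction of chromosome medians, the last added after the data were seen. Results for some genes are not reported here.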

Additional observations from a re-analysis of the deposited data

Results flagged for a closer look

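Signal was also present in shBAP1 for genes outside the comparison, which had a mean count under 50 over the 3 libraries. 14 such genes had no count in shEmpty and at least 50 in shBAP1, of which 13 are given here. NAA11, a testis-biased acetyltransferase subunit gene, had 134 counts in shBAP1 and 13 in shPRAME. POSTN, which encodes the matrix protein periostin, had 125 and 20. The noncoding genes LINC01029 and LINC01198 had 107 and 100 counts in shBAP1. GALNT3, which starts mucin-type glycosylation, had 105 and 0. The lymphangiogenic ligand VEGFC had 83 and 23, and CALCRL, a receptor of vascular peptides, 80 and 8. HDX had 78 counts in shBAP1, the readthrough gene PHOSPHO2-KLHL23 74, CALB2 (calretinin) 58, ARHGAP24 56, KLF12 55 and DCAF8L2 50. Against the floor of 3 counts in shEmpty these amount to between at least 21.0-fold (DCAF8L2) and at least 56.4-fold higher (NAA11). The readthrough gene shares sequence with its parent genes, so its counts are uncertain.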

How the results depend on the processing

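BAP1 stayed within its interval under every scaling tried. Of the 1685 calls (661 higher, 1024 lower), the numbers stayed within 1.5 times under total-count, upper-quartile and DESeq2 scaling, TMM from the 2 compared libraries, a minimum over those 2 libraries, a pseudocount of 1 CPM and subtraction of chromosome medians. A count minimum of 10 gave 2543 calls with 1169 higher, a minimum of 200 gave 1008 with 320 higher, and no minimum gave 3016 with 1530 higher and 1486 lower, which turns the balance of the calls. A fold limit of 1.5 gave 3645 (1522 higher, 2123 lower), a limit of 3 gave 778 (308 higher, 470 lower), and a whole interval beyond 2-fold gave 1098 with 414 higher. These differences follow from the rules, which test other genes or other sizes.

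Among list medians over 0.1 from 0, the sign changed with a minimum of 200 for collagen chains (-0.88), kinase inhibitors and the RB family (0.051), MHC class I presentation (-0.029) and S100 proteins (-0.14). It changed with the mean for matrix glycoproteins (-0.18) and MHC class II genes (-0.42), with total-count scaling for apoptosis regulators (0.012), and with chromosome medians subtracted for MHC class I presentation (-0.012). The cause was not tested. No sign of a called named gene changed. With total-count scaling 27 named genes fell under the limit, 20 of them also with upper-quartile scaling. Those described here were BAMBI, BMPR1A, C10orf12, COL4A1, COL4A2, CTSB, DFNA5, E2F1, ECM1, ID2, MX2, MYBL2, PHLDA1, PTTG1, RARG, SERPINA3, SMAD7, TBX2 and YWHAZ, while CDKN1A, FTL and HOXA10 passed it. With chromosome medians subtracted ADGRG6, BAMBI, BMPR1A, C10orf12, CTSB, DST, E2F4, HLA-DPA1, HLA-DRA, ITGA6, LAMA1, LAMA3, LGALS3BP, MCM4, NEU1, NT5E, PHLDA1, PSMB8, RAD54B, RARG, RB1, RBBP8, SFRP1, SMAD7, TAPBP, TET1 and YWHAZ were no longer called and MYO5A was. With 1 library per group no replicate could be left out, and intervals and floors hold counting error only.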
